A study of Homo sapiens with 2 samples.

Results

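The genes described here encode proteins that restrain mitogen-activated protein kinase (MAPK) signalling and that this signalling itself induces: the MAPK phosphatases DUSP1, DUSP4, DUSP5, DUSP6 and DUSP10, the Sprouty proteins SPRY1, SPRY2 and SPRY4, the Sprouty-related protein SPRED1, and PHLDA1. They were chosen by name and found through their Ensembl identifiers, as 10 of the 58174 genes listed. All 10 had a mean of at least 1 TPM (a relative transcript level corrected for transcript length) and so belonged to the 15008 genes compared below. The cells were PC3, an established human prostate cancer cell line that grows without androgen. They had been transfected either with a control siRNA (a small interfering RNA, which leads to decay of matching transcripts), for 1 library, or with an siRNA targeting POH1, for the other. POH1 is a deubiquitinase of the proteasome, encoded by PSMD14. Both groups were thus transfected PC3 cells. The siRNA sequences, the dose and the time after transfection were not given in the sources used here.

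With 1 library per group there was no replicate error, and no test between the groups could be made. All values below describe these 2 libraries only. Read depth is unknown because TPM does not keep it, so no counting error is given either.

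In the MAPK cascades a kinase at each step phosphorylates the next, and the last kinases (ERK, JNK and p38) phosphorylate many targets, transcription factors among them. Active ERK soon leads to transcription of its own inhibitors. The dual-specificity phosphatases of the DUSP family remove both the tyrosine and the threonine phosphate that keep a MAPK active, while Sprouty and SPRED proteins act further up, between growth factor receptors and RAF. Levels of these transcripts are widely used as a readout of ERK pathway output in cancer cells, including prostate cancer cells, although protein stability and phosphorylation also set the activity of the proteins.

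The targeted gene PSMD14 was at 50.9 TPM with control siRNA and 35.1 TPM with POH1 siRNA, 1.45-fold lower. Its log2 difference of -0.52 did not pass the 1.5-fold used below, and was -0.24 after adjustment for GC content. Of 7 markers that PC3 cells are known to express, all were present in both libraries, from 111 TPM for CDH1 to 1734 TPM for KRT19. KLK3 and KLK2, androgen-driven genes of the prostate lineage, were listed at 0 in both. Of 7 markers of blood, endothelial and fibroblast cells, 5 were below 1 TPM in both libraries, CD3E among them at 0 in both. The exceptions were PECAM1 at 4.90 and 3.88 TPM and COL1A1 at 30.9 and 47.8 TPM.

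SPRY1 was the 1 feedback gene with a large difference. It was 2.85-fold higher in the POH1 siRNA library, whereas the other 9 genes lay between 0.901 and 1.39 times their control level. Differences were taken as log2(TPM + 1) in the POH1 siRNA library less the same in the control library, and genes past 1.5-fold on this scale were counted. By that count 1 of 10 feedback genes was higher and 0 were lower. Of all 15008 genes, 10.2% passed 1.5-fold upwards and 8.88% downwards, so the number of higher feedback genes was near the background. The median difference of the 10 genes was 0.32 against 0.12 for all genes. It was also 0.32 over the 9 genes without SPRY1. Differences were above the median of all genes for 7 of the 10, and below it for DUSP4, DUSP10 and SPRY2.

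**Figure D1:**
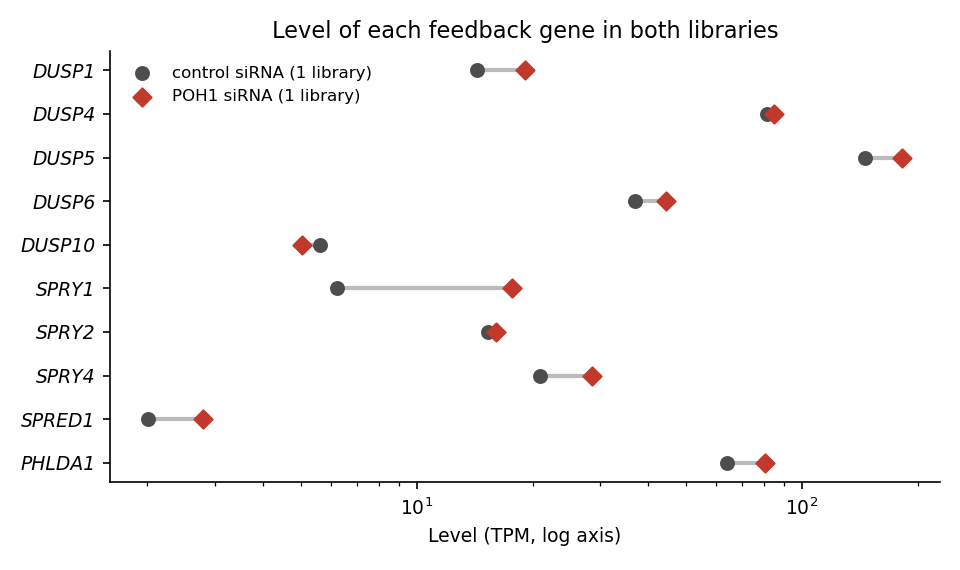
Level of each feedback gene in TPM on a log axis, with a circle for the control siRNA library and a diamond for the POH1 siRNA library (1 library each, no error). SPRY1 has the widest gap, from 6.20 to 17.6 TPM, and DUSP10 alone has its diamond to the left of its circle.

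The order of the levels was almost the same in both libraries. DUSP5 was the most abundant, at 146 TPM in the control library, a level above that of 93.1% of all genes compared. DUSP4, PHLDA1, DUSP6 and SPRY4 followed in that order in both libraries, and DUSP10 and SPRED1 came last in both. The change in order concerned SPRY2, DUSP1 and SPRY1. In the control library SPRY2 and DUSP1 were 1.06-fold apart and SPRY1 stood 2.32-fold below DUSP1. In the POH1 siRNA library DUSP1, SPRY1 and SPRY2 lay within 1.09-fold and 1.10-fold of their neighbours. Whether such neighbours differ cannot be told without replicates.

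Sprouty proteins are membrane-associated inhibitors that are phosphorylated on tyrosine after growth factor stimulation and reduce the signal from receptor kinases to ERK. SPRY1 was at 6.20 TPM with control siRNA and 17.6 TPM with POH1 siRNA. Its log2 difference of 1.37 was reached or passed by 0.833% of all genes, which placed it 125th from the top, and 2-fold was passed upwards by 2.15% of all genes. SPRY2, a close relative, was at 15.3 and 16.0 TPM, a ratio of 1.05. SPRY4 was at 20.9 TPM with control siRNA and 28.6 TPM with POH1 siRNA, 1.37-fold higher, with a log2 difference of 0.43. The POH1 siRNA library was thus above the control library for all 3 genes as listed, but by an amount for SPRY2 (0.07 on the log2 scale) that was below the median of all genes and turned negative when the libraries were scaled to a common median (-0.08) or by a trimmed mean (-0.05), or when TPM was recomputed without the most abundant genes (-0.00082). The remaining family member, SPRY3, was barely detected, at 0.0365 and 0.0567 TPM.

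Ratios between genes within a library do not depend on how the libraries are scaled, but their change between libraries can still carry the trend with GC content described below. The ratio of SPRY1 to SPRY2 was 0.406 in the control library and 1.10 in the POH1 siRNA library, and that of SPRY1 to SPRY4 was 0.296 and 0.617. The ratio of SPRY4 to SPRY2 moved less, from 1.37 to 1.78. After adjustment for GC content the log2 differences of SPRY4 and SPRY2 were closer, at 0.35 and 0.21 rather than 0.43 and 0.07. The summed level of the 4 Sprouty genes was 42.5 TPM with control siRNA and 62.4 TPM with POH1 siRNA, and SPRY1 supplied 57.5% of the gap. Its share of the Sprouty sum was 14.6% in the control library and 28.3% in the POH1 siRNA library. SPRY2 went from 36.0% to 25.7%, and SPRY4, the most abundant of them in both libraries, from 49.3% to 45.9%.

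The bases just before the start site are shown for SPRY1, which differed most, for SPRY2 as its relative with little difference, and for DUSP1, a textbook example of a promoter with cyclic AMP response elements. They are the 250 bases before the outermost RefSeq start of each gene, taken from a table on build GRCh38.p14 (the expression files used hg19), at chr4:123396545-123396794 on the plus strand for SPRY1, chr13:80341127-80341376 on the minus strand for SPRY2 and chr5:172771196-172771445 on the minus strand for DUSP1. Capitals mark the letters of the cyclic AMP response element TGACGTCA, its shorter form TGACG and the ETS core CCGGAA on either strand.
SPRY1: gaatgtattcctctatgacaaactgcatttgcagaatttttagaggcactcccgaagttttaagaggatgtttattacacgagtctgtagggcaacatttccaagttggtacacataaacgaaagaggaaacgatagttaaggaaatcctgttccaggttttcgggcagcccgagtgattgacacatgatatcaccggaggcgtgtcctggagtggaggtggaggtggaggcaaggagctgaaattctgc
SPRY2: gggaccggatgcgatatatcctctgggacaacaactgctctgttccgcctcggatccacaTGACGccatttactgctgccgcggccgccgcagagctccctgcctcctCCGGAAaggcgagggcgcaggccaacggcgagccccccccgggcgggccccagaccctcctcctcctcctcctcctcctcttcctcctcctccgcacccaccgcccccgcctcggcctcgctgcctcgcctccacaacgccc
DUSP1: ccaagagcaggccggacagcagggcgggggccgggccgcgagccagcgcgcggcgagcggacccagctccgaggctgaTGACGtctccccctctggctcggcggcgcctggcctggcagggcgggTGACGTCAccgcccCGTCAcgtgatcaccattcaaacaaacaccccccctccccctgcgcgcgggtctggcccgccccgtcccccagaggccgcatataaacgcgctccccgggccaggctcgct

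The table held 12 such windows for 8 of the feedback genes, and 8 motifs were searched on both strands in all 35116 windows of the table. TGACGTCA was in 1.65% of all windows and, of the feedback genes, in that of DUSP1 alone, at 125 to 118 bases before the start. The shorter TGACG, which overlaps it, was in 21.2% of all windows and in 3 of the 12, those of DUSP1, SPRY4 and SPRY2 (the outermost start). CCGGAA was in 14.5% of all windows and in 3 of the 12, for SPRY1 (the second start), SPRY2 (the outermost start) and PHLDA1. The AP-1 site TGANTCA (6.57% of all windows), the CArG box bound by serum response factor (1.16%) and the NF-kB motif (5.21%) matched in 0 of the 12. TATAAA (10.7%) was found for DUSP1, and CCAAT (32.0%) for DUSP6 and DUSP10. The outermost SPRY1 window held none of the 8 motifs. Some windows overlap annotated (GENCODE) exons of the same gene. All 250 bases did so for SPRY1 (the second start), PHLDA1, DUSP6 and SPRED1, 170 bases for SPRY4 and 87 for DUSP10 (the outermost start). A match describes the letters only.

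SPRED1 joins a Sprouty-type domain to a domain that binds the RAS inhibitor neurofibromin and brings it to the membrane. It had the lowest level of the 10 genes, at 2.00 TPM with control siRNA and 2.78 TPM with POH1 siRNA. The POH1 siRNA library was 1.39-fold higher in TPM, and the log2 difference was 0.33. Its relatives were more abundant and were also above the control in the POH1 siRNA library, SPRED2 at 12.6 and 15.4 TPM and SPRED3 at 5.97 and 8.54 TPM. NF1, which encodes neurofibromin, went the other way, at 5.62 TPM with control siRNA and 2.92 TPM with POH1 siRNA, 1.92-fold lower. Its log2 difference was -0.75, and -0.39, within 1.5-fold, once the running median of the differences of genes of like GC content was subtracted (GC adjustment).

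DUSP1, DUSP4 and DUSP5 are nuclear phosphatases that growth factors and stress induce. DUSP1, which acts on p38 and JNK as well as ERK, was at 14.4 TPM with control siRNA and 19.2 TPM with POH1 siRNA, 1.33-fold higher. DUSP5, which is specific for ERK and holds it in the nucleus, was at 146 and 182 TPM, 1.25-fold higher. DUSP4, close to DUSP1 in sequence, was at 81.2 and 84.8 TPM, a ratio of 1.04. The POH1 siRNA library was the higher one for all 3, with log2 differences of 0.39, 0.32 and 0.06, of which that of DUSP4 lay below the median of all genes and became -0.09 with median scaling, -0.06 with trimmed mean scaling and -0.00798 when TPM was recomputed without the most abundant genes. DUSP2, the remaining gene of this nuclear class, was low, at 1.83 and 1.43 TPM. DUSP5 made up 60.0% of the summed level of these 4 genes in the control library and 63.3% in the POH1 siRNA library.

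DUSP6 is the cytoplasmic phosphatase specific for ERK and one of the most used transcript markers of ERK activity. It was at 37.0 TPM with control siRNA and 44.4 TPM with POH1 siRNA. The POH1 siRNA library was 1.20-fold higher, a log2 difference of 0.26 that 35.0% of all genes reached or passed. An antisense transcript gene that overlaps DUSP6 was at 0.398 and 2.18 TPM, and use of strand was not given in the sources used here, so reads of the 2 genes may not be separable. The other cytoplasmic ERK phosphatases were also above the control, DUSP7 at 32.3 and 42.0 TPM and DUSP9 at 4.15 and 6.13 TPM. The ratio of DUSP5 to DUSP6 was 3.95 in the control library and 4.10 in the POH1 siRNA library.

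DUSP10 acts on JNK and p38 rather than ERK. It was at 5.60 TPM with control siRNA and 5.05 TPM with POH1 siRNA, and so was the 1 feedback gene that was lower in the POH1 siRNA library. The log2 difference was -0.13, and it was 0.03 after adjustment for GC content (below). The related phosphatases of JNK and p38 did not go one way. DUSP8 was at 10.4 and 15.9 TPM and DUSP16 at 12.0 and 9.24 TPM. Their log2 differences were 0.58 and -0.34, and 0.39 and -0.06 after GC adjustment. The sum of these 3 genes was 27.9 TPM with control siRNA and 30.2 TPM with POH1 siRNA.

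PHLDA1 encodes a pleckstrin homology-like protein that is induced by ERK signalling and dampens signalling from receptor kinases. It was at 64.0 TPM with control siRNA and 80.1 TPM with POH1 siRNA, 1.25-fold higher, with a log2 difference of 0.32. Of its relatives, PHLDA2 was at 201 and 264 TPM and PHLDA3, a p53 target, at 60.7 and 66.8 TPM. All 3 were above the control in the POH1 siRNA library and within 1.5-fold. PHLDA1 overlaps 2 antisense transcript genes, which were below 0.4 TPM in both libraries.

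Taking all 10 MAPK phosphatases of the DUSP family, including the 5 outside the chosen list, the summed level was 345 TPM with control siRNA and 410 TPM with POH1 siRNA, 1.19-fold higher. DUSP5 made up 42.3% and 44.4% of it, DUSP4 23.6% and 20.7%, and DUSP6 10.7% and 10.8%. The largest move of a share within this sum was that of DUSP4. Shares depend on the sum chosen, and this one is larger than that of the Sprouty genes. Within the smaller sum of the 3 phosphatases of JNK and p38, DUSP8 went from 37.1% to 52.7% and DUSP16 from 42.9% to 30.6%. Shares were taken without GC adjustment, after which the log2 difference of DUSP16 was -0.06.

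**Figure D2:**
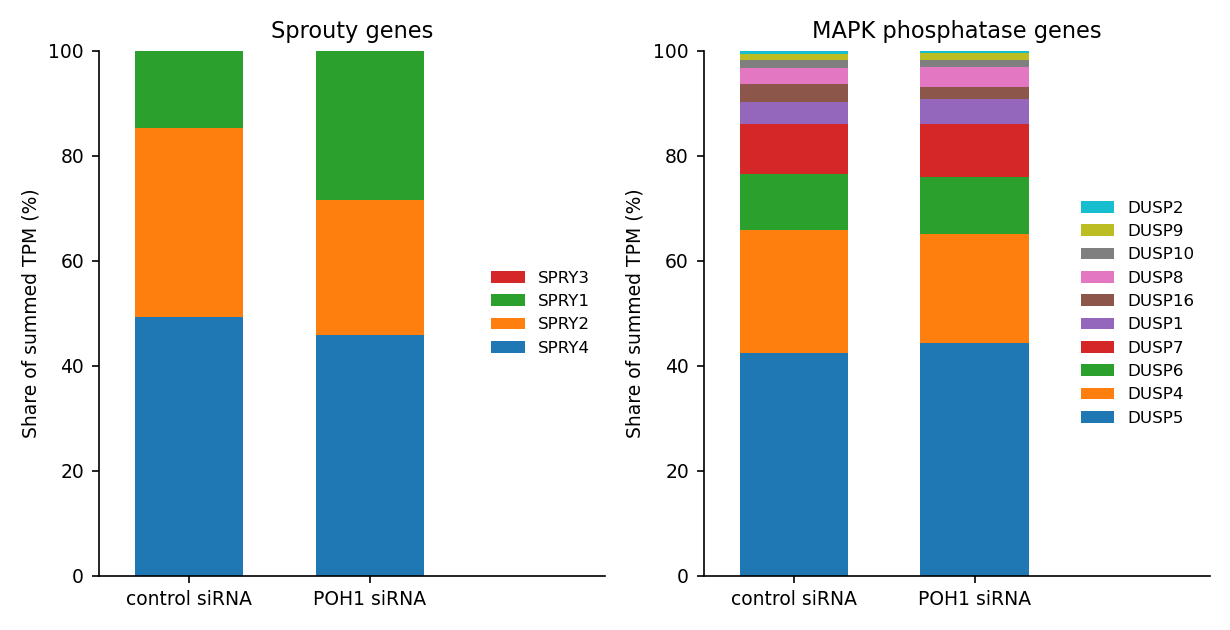
Share of each gene in the summed TPM (%) of the 4 Sprouty genes on the left and of 10 MAPK phosphatase genes on the right, with 1 bar per library. The SPRY1 segment goes from 14.6% to 28.3%. The phosphatase segments, which are shares of a larger sum, keep nearly the same heights.

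Differences between these libraries moved with the GC content of the transcripts, so the feedback genes were set beside genes of like GC content. Among genes above 40% and up to 45% GC the median log2 difference was -0.17, and among those above 55% and up to 60% it was 0.24. SPRY1 (44.6% GC), SPRED1 (44.8%) and PHLDA1 (43.0%) were in the former class, and were above its median by more than they were above the median of all genes. In that class 1.13% of the 2830 genes passed 2-fold upwards. DUSP1 (55.1%), DUSP5 (55.1%) and SPRY4 (57.9%) were in the latter class and lay nearer to its median than to that of all genes. After the trend with GC was removed, the log2 difference was 1.63 for SPRY1, 0.69 for PHLDA1 and 0.59 for SPRED1. By this measure 3 of 10 genes were at least 1.5-fold higher, where 12.6% of all genes were, and 0 were lower, where 5.19% of all genes were. SPRED1 passed only just, at 0.591 against 0.585 for 1.5-fold. Its mean of 2.39 TPM was below the 5 TPM of the genes that set the trend. The median of the 10 was 0.32 after adjustment and 0.15 for all genes. What gives rise to the trend with GC was not tested.

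**Figure D3:**
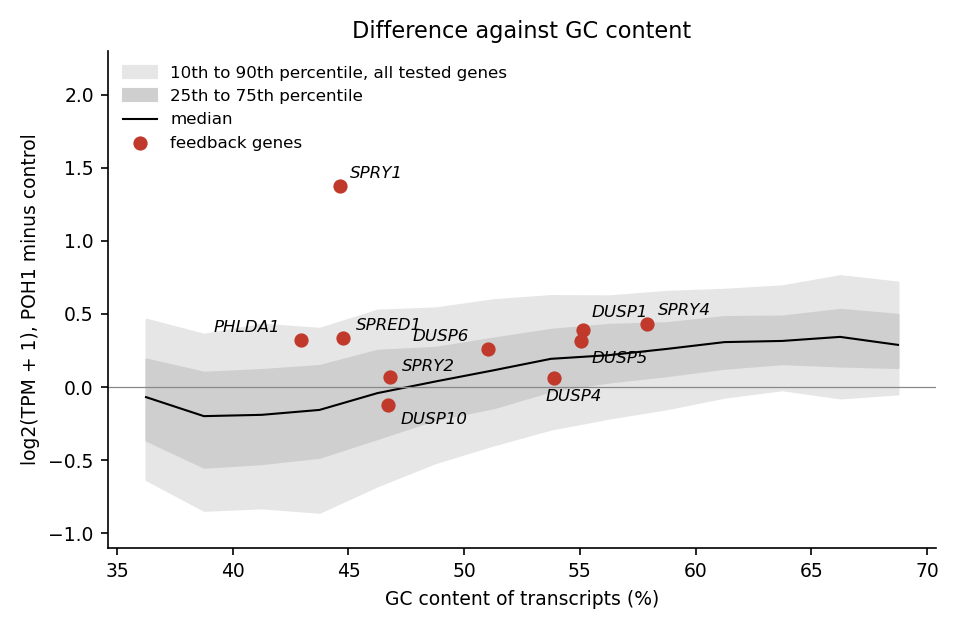
Log2 difference (POH1 siRNA less control siRNA) of the feedback genes (points) against the GC content of their transcripts in percent, over the median and percentile bands of 14877 genes in classes of GC content. SPRY1, at 1.37, lies above the band up to the 90th percentile, and DUSP4 and DUSP10 lie below the median line.

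**Figure D4:**
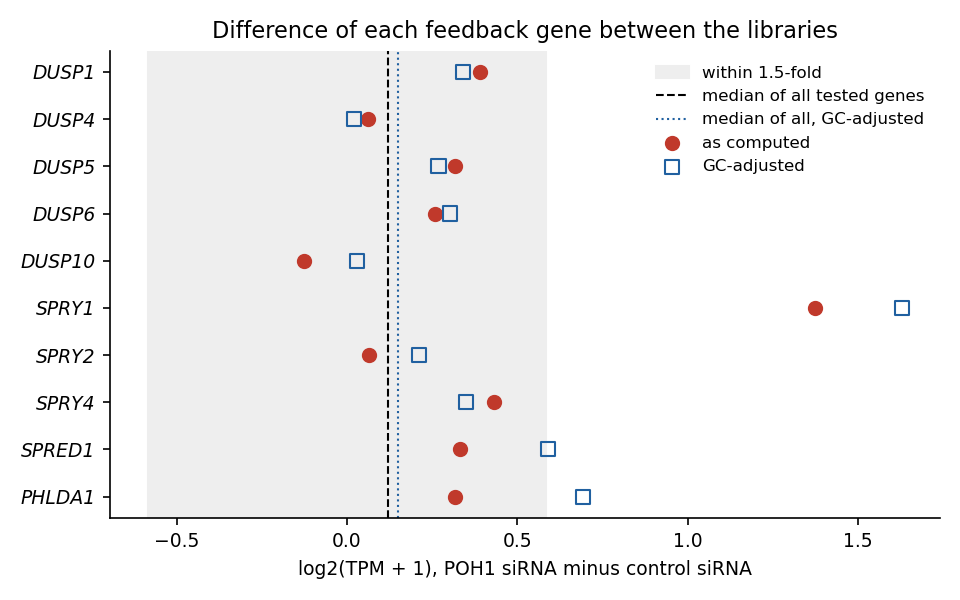
Log2(TPM + 1) difference of each feedback gene, as computed (filled circles) and after GC adjustment (open squares). The dashed line is the median of all genes as computed (0.12), the dotted line that after adjustment (0.15), and the grey band covers 1.5-fold. SPRY1 is outside the band in both, and PHLDA1 and, only just, SPRED1 leave it after adjustment.

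The feedback genes had features in common that did not enter their choice. Of the 10, 9 had at most 4 exons in the GENCODE transcript with the longest coding sequence, against 20.2% of 12088 protein-coding genes compared. The median span of the genes was 11096.5 bases against 30645.5 for these protein-coding genes. SPRED1, at 104924 bases, and DUSP10, at 40753 bases, were above the latter median. The sequence TATTTAT, the core of the AU-rich elements that mark short-lived messenger RNAs, occurred at least 3 times in the 3′ untranslated region of 6 of the 10 genes (DUSP1, DUSP4, SPRY1, SPRY4, SPRED1 and PHLDA1), against 4.76% of protein-coding genes. SPRED1 had 5 such matches in 5585 bases, DUSP1 had 3 in 672 bases and SPRY1 3 in 1209 bases. DUSP5, DUSP6 and DUSP10 had 0. Longer untranslated regions can hold more matches, and the median length of these regions was 1615.5 bases for the 10 genes and 882 for protein-coding genes.

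One match with its neighbouring bases is shown for each of 5 of these genes, to let the elements be compared. They are read from GENCODE release 29 transcripts, and capitals mark TATTTAT.
DUSP1: ggctggtcctTATTTATttaacttcac
SPRY1: ctcaagttgaTATTTATagctgatcaa
SPRY4: taaccataggTATTTATtgattggagg
SPRED1: catttttgtaTATTTATgcattaggtg
PHLDA1: agaagactttTATTTATgaacctttga

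The 6 feedback genes with at least 3 matches had a median log2 difference of 0.36 and the 4 others 0.16. Outside the feedback genes, the 569 genes with at least 3 matches had a median of 0.14, beside 0.13 for the 8555 genes with none, and 12.1% of them were at least 1.5-fold higher against 8.87%. Their median GC content was 44.0% against 53.1%, and after GC adjustment the medians were 0.32 and 0.12.

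Other genes of the pathway were read from lists of family relatives, inhibitors, targets and kinases. Among the 5 other MAPK phosphatases 0 were at least 1.5-fold higher and 0 lower, where 10.2% and 8.88% of all genes were. Their median was 0.37, and 0.21 after GC adjustment. With a pseudocount of 0.1 DUSP8 passed 1.5-fold upwards, at 0.62. Atypical dual-specificity phosphatases, which lack the MAPK docking domain, were measured for 10 genes, with a median of 0.41. Of these, 4 were higher (DUSP13, DUSP14, DUSP22 and DUSP23) and 1 was lower (DUSP11), beside the same 10.2% and 8.88% of all genes. DUSP14 was at 45.9 TPM with control siRNA and 72.8 TPM with POH1 siRNA, DUSP23 at 11.2 and 18.5 TPM, DUSP22 at 15.5 and 23.9 TPM, and DUSP13 at 0.742 and 2.35 TPM. DUSP11, a phosphatase of RNA, was at 15.8 and 9.13 TPM. DUSP13 was below 1 TPM in the control library and met the mean of 1 TPM only through its POH1 siRNA value, so its call is tied to the filter. The calls moved with the processing. With a filter at a mean of 5 TPM, which drops DUSP13, 3 were higher (9.41% of all genes were), and without a filter the median was 0.13. With median or trimmed mean scaling DUSP13 was the 1 atypical gene at least 1.5-fold higher, where 5.99% and 6.59% of all genes were. With a pseudocount of 5 the 1 higher atypical gene was DUSP14, where 4.24% of all genes were higher. After GC adjustment DUSP22 (0.53), DUSP23 (0.49) and DUSP11 (-0.35) were within 1.5-fold, whereas DUSP3 (0.61) and STYX (0.64) passed it.

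Among 11 other inhibitors of receptor, RAS and ERK signalling 2 were higher and 2 were lower, where 10.2% and 8.88% of all genes were. The median of 0.08 was below that of all genes (after GC adjustment it was above, at 0.21 against 0.15). PEA15, which encodes a protein that anchors ERK in the cytoplasm, was at 81.8 TPM with control siRNA and 237 TPM with POH1 siRNA, 2.90-fold higher. Its log2 difference was 1.52, and 1.46 after GC adjustment, where that of SPRY1 was 1.63. DAB2IP, a RAS GTPase-activating protein, was at 8.22 and 12.9 TPM. NF1, given above, and PPP2CA, the catalytic subunit of a phosphatase that acts on ERK and its upstream kinases, were lower, the latter at 33.3 and 20.4 TPM. PPP2CA was at -0.25 after GC adjustment, and DAB2IP was within 1.5-fold with either scaling. ERRFI1, a feedback inhibitor of the EGF receptor that ERK also induces, was at 75.7 and 67.0 TPM.

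Other genes that ERK induces had a median of 0.34 over 16 genes, which was 0.23 after GC adjustment. Of the 16, 2 were higher and 1 was lower, near the shares of all genes (10.2% and 8.88%). The higher ones were EGR1, at 1.39 and 3.50 TPM, and IER3, at 1244 and 1929 TPM, of which IER3 was within 1.5-fold with either scaling and after GC adjustment, and EGR1 with a pseudocount of 5. MAFF, a small MAF transcription factor, was at 59.5 TPM with control siRNA and 13.3 TPM with POH1 siRNA, the lowest difference in these lists (-2.08). ETV4 and ETV5, ETS factors commonly read together with DUSP6 and the Sprouty genes, did not go the same way: ETV4 was at 125 and 165 TPM and ETV5 at 36.1 and 31.8 TPM. FOSL1, whose transcription follows sustained ERK activity, was at 532 and 739 TPM, and CCND1 at 181 and 197 TPM.

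Within 1.5-fold lay 80.9% of all genes, and the lists of kinases are read against that share. Of 13 receptor kinases and ligands 0 were higher and 1 was lower, the EGF receptor ligand AREG (28.9 and 18.2 TPM), with a median of 0.13. After GC adjustment AREG was at -0.29, and MET (0.61) passed 1.5-fold upwards. With a pseudocount of 0.1 IGF1R passed it upwards, at 0.81. EGFR was at 43.2 and 47.1 TPM, IGF1R at 1.52 and 2.75 TPM and FGFR4 at 40.3 and 52.6 TPM. Of 20 genes from the adaptors to ERK and RSK 2 were higher and 0 lower, with a median of 0.17. KSR1, a scaffold for RAF, MEK and ERK, was at 2.60 and 7.55 TPM and the adaptor GRB2 at 35.4 and 57.6 TPM, GRB2 being within 1.5-fold with either scaling. The ERK gene MAPK3 (113 and 146 TPM) and the MEK genes MAP2K1 (41.8 and 47.6 TPM) and MAP2K2 (202 and 250 TPM) were all within 1.5-fold.

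In the JNK and p38 cascade, on which DUSP1 and DUSP10 act, 3 of 12 genes were higher and 2 were lower, with a median of 0.30, where 10.2% and 8.88% of all genes were. MAPK14, which encodes p38 alpha, was at 21.5 TPM with control siRNA and 9.53 TPM with POH1 siRNA, 2.26-fold lower, and its activating kinase MAP2K6 was at 10.8 and 4.72 TPM. The p38 delta gene MAPK13 was at 40.1 and 69.7 TPM. The other 2 higher genes were MAPK12 (22.8 and 35.5 TPM), which shares exon sequence with HDAC10, and MAP2K7 (16.5 and 26.6 TPM), both within 1.5-fold with either scaling. MAPK13, MAPK14 and MAP2K6 stayed past 1.5-fold with either scaling, with a pseudocount of 5 and after GC adjustment. MAP3K7 passed 1.5-fold downwards with median scaling (-0.63) and trimmed mean scaling (-0.61). After GC adjustment MAPK12 (0.42) and MAP2K7 (0.47) were within 1.5-fold, whereas MAPK8 (0.69) and MAP2K4 (0.65) passed it upwards.

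**Figure D5:**
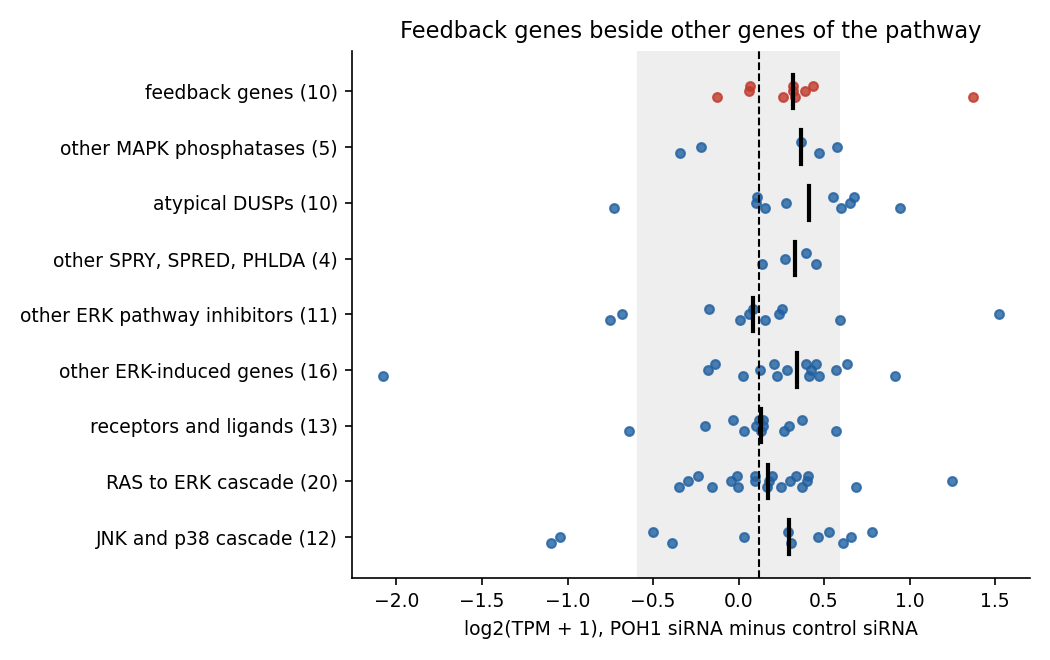
Log2(TPM + 1) difference of each gene with a mean of at least 1 TPM in the feedback list (red) and in 8 lists of related genes (blue), with the number of genes in brackets. Black bars are list medians, the dashed line is the median of all genes (0.12) and the grey band covers 1.5-fold. The feedback genes lie within the band except for SPRY1.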

How the data were processed

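RNA of 2 PC3 cultures, 1 per group, was sequenced after Trizol extraction and mRNA library preparation, per the labels' protocols. The deposited values are TPM per Ensembl gene, scaled by the authors so that the columns sum to 999955 (control siRNA) and 999968 (POH1 siRNA). CASAVA, HISAT2 and hg19 are named in the submitters' processing notes. The annotation, the tool behind the TPM values, strand use and depth were not given in the sources used here, so depth sets no stated precision. How genes that share sequence were treated is likewise unknown.

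Symbols were matched by identifier (57392 of 58174), with 1 symbol, DUSP27, matched through a RefSeq synonym. The difference was log2(TPM + 1) in the POH1 siRNA library less that in the control library, over genes whose mean reached 1 TPM, counted at 1.5-fold. GC content is the median over a gene's GENCODE release 29 transcripts. GENCODE 29 is on GRCh38. Its trend is a running median over 250 genes on each side, among genes whose mean reached 5 TPM. Each gene's difference had this trend taken off and the median of the genes used for the trend (0.14) put back. Promoter windows are from RefSeq. Python 3.11.15, pandas 2.3.3 and NumPy 2.4.6 were used, and the calculations were tested on simulated data.

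The feedback genes and the 8 lists of related genes were chosen with earlier results of these data known. Named genes were all 10 feedback genes, PSMD14, the 3 genes of each list with the largest difference, and any relative or ERK cascade gene. Other genes of these lists and the marker genes were chosen after their values were seen. The former were STYX, DAB2IP, ERRFI1, FOSL1, CCND1, ETV4, ETV5, EGFR, MET, MAPK8, MAPK12, MAP2K4, MAP2K7 and MAP3K7. No measure of likeness between genes was used, since 2 libraries allow none. Alternatives were other pseudocounts, filters, scalings, a recomputed TPM and the GC adjustment.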

Additional observations from a re-analysis of the deposited data

How the results depend on the processing

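SPRY1 was at least 1.5-fold higher under all 8 alternatives, with log2 differences from 1.02 to 1.63, and 0 feedback genes were at least 1.5-fold lower under any of them. The count of higher feedback genes was 1 in each alternative except GC adjustment, where it was 3. The share of all genes at least 1.5-fold higher was lowest with a pseudocount of 5 (4.24%) and highest with one of 0.1. After GC adjustment it was 12.6%. Downwards the share ran from 4.45% (pseudocount of 5) to 12.7% (median scaling). With at most 10 genes, counts of 1 higher and 0 lower did not set the feedback genes apart from these shares. The median of the feedback genes was 0.27 with a pseudocount of 5, 0.17 with median scaling, 0.19 with trimmed mean scaling and 0.25 when TPM was recomputed after dropping the mitochondrial and the 50 most abundant genes, and stayed at 0.32 with a pseudocount of 0.1, without a filter, with a filter at 5 TPM (which drops SPRED1) and after GC adjustment. Median scaling lowers the median of all genes from 0.12 to -0.01 by construction. The feedback median was above that of all genes by 0.17 to 0.28 over the 8 alternatives. Either scaling moves both medians nearly alike, so the gap could hardly change there. Without a filter the feedback median could not change, and the gap of 0.28 came from a lower median of all genes (0.04). Differences of DUSP1, DUSP5, DUSP6, SPRY4, SPRED1 and PHLDA1 were above 0 in each alternative that held the gene, whereas those of DUSP4, SPRY2 and DUSP10 changed sign. Among related genes, the number of atypical dual-specificity phosphatases that were higher ran from 1 to 4, and that of lower inhibitors from 0 to 2. No paired analysis was possible because each group had 1 library, and for the same reason no library could be left out. Depth is unknown, so low values such as those of SPRED1 and SPRY3 have no stated precision.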
